A study of Mus musculus with 4 samples.

Results

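Kmt2d encodes a histone H3 lysine 4 methyltransferase, and 10 genes were taken as the subunits of the complexes built on KMT2D and its paralog KMT2C. They were found by their names in the deposited count table: Kmt2d, Kmt2c, Kdm6a, Paxip1, Pagr1a, Ncoa6, Wdr5, Rbbp5, Ash2l and Dpy30. All 10 were present among 20837 genes, and all 10 passed the filter on low counts, which left 13861 genes to test. In the gene ontology columns of the deposited table, the term for the MLL3/4 complex (an older name for KMT2C and KMT2D) was attached to 12 genes, the 10 members and the histone demethylase genes Kdm6b and Uty.

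The RNA came from sorted mouse splenic Treg cells, regulatory T cells that depend on the transcription factor Foxp3 and keep immune responses in check. In 2 libraries, called cKO, the genotype was Foxp3YFP-CreKmt2dfl/fl. The other 2 libraries, called WT, had the genotype Foxp3YFP-CreKmt2d+/+. Both groups therefore carry the Foxp3-driven Cre with its fluorescent tag, and the Kmt2d alleles are what differs. Cre acts in cells that express Foxp3, so other cells that come through the sort keep intact alleles. No age is given in the sources used here, nor whether a group's libraries stem from separate animals. The p-values then rest on the spread of these libraries alone, and that spread may be technical. The extraction text in the labels describes cultured bone marrow macrophages of a different knockout. The grouping follows the genotype, tissue and cell type fields.

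KMT2C and KMT2D place mainly the monomethyl mark on lysine 4 of histone H3 at enhancers, and they do so inside large assemblies of the COMPASS family. WDR5, RBBP5, ASH2L and DPY30 form a core that every COMPASS methyltransferase uses and that is needed for full catalytic activity. PAXIP1, PAGR1, NCOA6 and the demethylase KDM6A, which removes methyl groups from lysine 27 of histone H3, belong to the KMT2C and KMT2D assemblies and not to the other ones. In T cells these enzymes are known for work at lineage genes, Foxp3 among them.

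The libraries held 28442416 and 34225385 counts in cKO and 35560491 and 30737750 in WT, so 1 read stood for 0.0288 to 0.0344 CPM (counts scaled to library size with TMM factors). Foxp3 measured 170 and 180 CPM in cKO against 278 and 250 CPM in WT, and Cd4 645 and 670 CPM in cKO against 841 and 802 CPM in WT, so both defining markers of the labelled cell type were present throughout. Of 8 T cell markers, 5 were lower in cKO by the test described below, which called 15.1% of all genes tested lower and 16.5% higher. Of the 6 Treg markers, Foxp3 among them, 1 was called higher and 2 lower. Their sums overlapped between groups, at 2188 and 2746 CPM in cKO and 3058 and 2265 CPM in WT. Transcripts of other cell types were also found. The 8 macrophage markers summed to 936 and 779 CPM in cKO and to 545 and 736 CPM in WT. The 7 neutrophil markers summed to 399 and 879 CPM in cKO and to 41.5 and 126 CPM in WT. The 6 basophil and mast cell markers summed to 19.4 and 33.9 CPM in cKO and to 1.56 and 3.61 CPM in WT, and the 8 proliferation genes to 986 and 887 CPM in cKO against 430 and 525 CPM in WT. All members of the last 3 lists were called higher in cKO, against 1 of the 8 macrophage markers. The 6 markers of CD8 T and NK cells summed to 201 and 209 CPM in cKO and to 112 and 137 CPM in WT, with 5 called higher. The 5 markers of plasmacytoid dendritic cells summed to 101 and 106 CPM in cKO and to 85.7 and 82.6 CPM in WT, with 2 called higher. The 6 B cell markers summed to 170 and 265 CPM in cKO and to 136 and 164 CPM in WT, with 1 called higher. The 5 erythroid markers varied widely within each group, with sums of 150 and 409 CPM in cKO and of 531 and 195.5 CPM in WT. Of the 4 erythroid markers tested, 0 were called. No marker of these lists was at 0 in all libraries. The shifts between the groups move with every result below, and their part in it was not tested. In a bulk library, fewer cells of a type and less RNA per cell cannot be told apart. Xist had 1 to 4 counts in every library and the Y-linked gene Ddx3y 6209 to 8144, so the RNA in all 4 libraries was of male origin. This bears on Kdm6a, which is X-linked and has the Y-linked paralog Uty.

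The stretches of sequence shown lie upstream of Kmt2d, Paxip1 and Pagr1a, chosen because these are the members called higher in cKO. They are from RefSeq (GRCm38.p6, the same assembly as mm10) on the minus strand, and each runs up to the base before a RefSeq transcript start. For Kmt2d and Paxip1, whose annotated spans reach further upstream, they are the 250 bases at chr15:98871206-98871455 and chr5:27791551-27791800. For Pagr1a they are the 178 bases at chr7:127017353-127017530 that separate its start from the end of the neighbouring gene Prrt2. Capitals mark matches, on either strand, to any of 7 motifs searched: the GC box GGGCGG bound by SP and KLF factors, the CCAAT box (CCAAT), the ETS core CCGGAA, the cyclic AMP element TGACGTCA, the palindromic motif of nuclear respiratory factor 1 (NRF1), TATAAA and the forkhead motif TGTTTAC.
Kmt2d: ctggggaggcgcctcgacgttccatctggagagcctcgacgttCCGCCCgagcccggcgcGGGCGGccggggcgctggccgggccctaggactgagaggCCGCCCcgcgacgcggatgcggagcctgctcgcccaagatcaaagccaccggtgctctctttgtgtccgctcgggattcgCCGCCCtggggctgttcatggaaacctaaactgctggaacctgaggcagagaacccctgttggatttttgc
Paxip1: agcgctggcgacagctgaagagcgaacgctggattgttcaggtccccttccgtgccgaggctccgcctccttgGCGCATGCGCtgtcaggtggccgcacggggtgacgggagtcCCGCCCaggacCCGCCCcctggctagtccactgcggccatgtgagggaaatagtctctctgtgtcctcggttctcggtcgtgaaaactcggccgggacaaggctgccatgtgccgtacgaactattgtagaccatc
Pagr1a: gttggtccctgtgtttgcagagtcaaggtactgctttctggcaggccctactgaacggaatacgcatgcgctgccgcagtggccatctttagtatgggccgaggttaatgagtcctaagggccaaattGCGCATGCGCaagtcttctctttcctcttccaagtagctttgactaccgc
The Kmt2d stretch held 4 GC boxes and no other of the 7 motifs. Paxip1 had 2 GC boxes and 1 NRF1 motif, and the Pagr1a stretch had 1 NRF1 motif alone. Over 27025 such windows of 250 bases, 32.9% held a GC box and 0.781% the NRF1 motif. A window was at hand for 9 of the 10 members, matched by gene number, and the other 7 of them held no NRF1 motif. The window of Ncoa6, at chr2:155440784-155441033, lies inside the annotated span of that gene, chr2:155390656-155473911. Dpy30 had 4 windows, of which 1 is counted here. Other starts of these genes are not covered, so a motif may be missed there. A GC box was found in 5 of the 9, up to 12 of them in Kmt2c, whose window was 91.6% G and C against a median of 52.0% over all windows. The windows of Kmt2d and Paxip1 were 67.6% and 63.6% G and C. The share of all windows with a GC box is therefore not matched to them in composition. The motifs were chosen with the fold changes known. A match is a description of letters, not of binding.

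Measured per length, in TPM (counts per kb of annotated exon, scaled to the same sum in each library), the members spanned a wide range of levels. Pagr1a was the highest in cKO, at 174 ± 6.20 TPM in cKO and 116 ± 10.3 TPM in WT (SD, n = 2 each). Kmt2d followed with 144 ± 8.05 TPM in cKO and 125 ± 1.51 TPM in WT, so that in WT the 2 genes did not differ beyond their spread. Dpy30 reached 79.8 ± 3.97 TPM in cKO and 73.7 ± 0.837 TPM in WT. Below it lay Rbbp5, Wdr5 and Kmt2c, at 60.6, 60.1 and 53.8 TPM in cKO and 61.7, 57.5 and 60.4 TPM in WT, whose order depends on the group. Ncoa6 had 47.5 TPM in cKO and 49.0 TPM in WT, and Kdm6a 38.3 TPM in cKO and 41.9 TPM in WT. The lowest were Paxip1 with 22.0 TPM in cKO and 19.0 TPM in WT, and Ash2l with 20.94 TPM in cKO and 20.96 TPM in WT. Among tested genes with an annotated length, Pagr1a and Kmt2d stood at percentiles 91.8 and 91.2 of the mean level and Paxip1 and Ash2l at 51.0 and 51.5. The scale depends on the length used: with the longest coding length in place of exon length, Dpy30 had 94.9 TPM and Kmt2d 52.9 TPM in cKO, against 87.7 TPM and 46.0 TPM in WT.

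**Figure D1:**
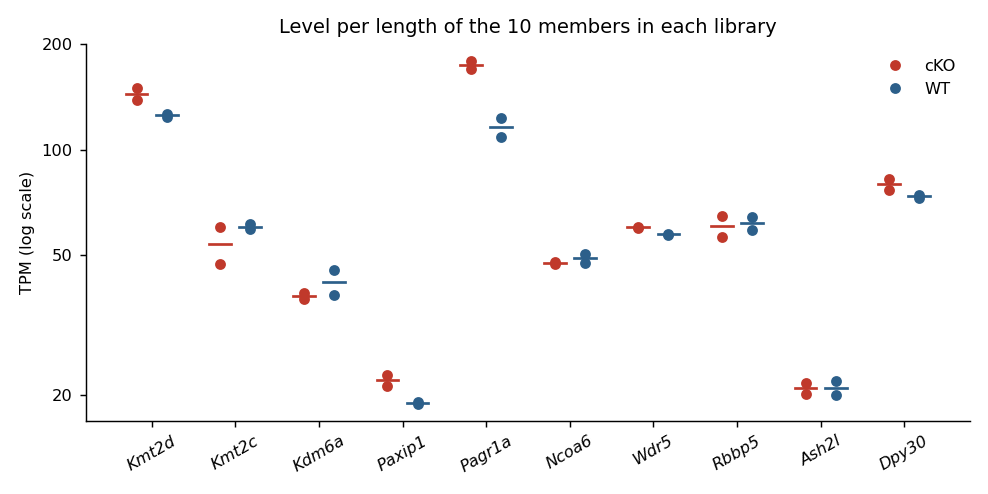
Level of each member per length of annotated exon (vertical axis, TPM on a log scale) in the cKO libraries (red) and the WT libraries (blue). Points are libraries and bars group means. Pagr1a lies at 178 and 170 TPM in cKO against 109 and 123 TPM in WT, and Paxip1 and Ash2l are near 20 TPM.

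The comparison of cKO with WT asks how the transcripts of the complex stand when the methyltransferase gene at its centre is targeted in Foxp3-expressing cells. Of the 10 members, Kmt2d, Paxip1 and Pagr1a were higher in cKO, none was lower, and 7 did not pass (edgeR quasi-likelihood test, adjusted p under 0.05 by Benjamini-Hochberg over all genes tested). Of all genes tested, 31.6% passed, 16.5% higher and 15.1% lower, so 3 of 10 is near the background. No member was lower at an unadjusted p under 0.05 either, and DESeq2 and limma-voom called 0 lower. This did not hold in every fit. A block that pairs libraries of unlike replicate number, added after the data were seen, called 2 lower, Kmt2c and Kdm6a. Without cKO 1 the log2 fold change of Kmt2c was -0.35. The median log2 fold change was 0.02 over the members and 0.0003 over all genes tested, and the median absolute one was 0.12 over the members and 0.19 over all genes.

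**Figure D2:**
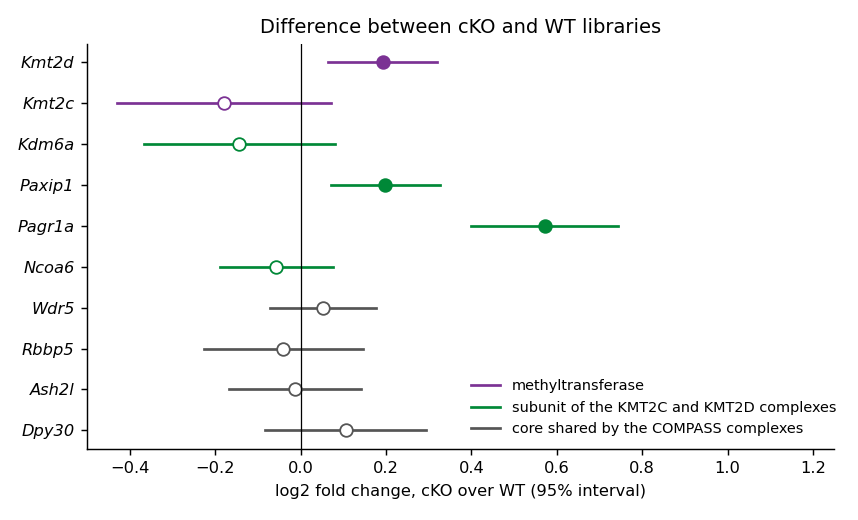
Log2 fold change of each member, cKO over WT (horizontal axis), with its 95% interval, grouped by colour into methyltransferases, subunits of the KMT2C and KMT2D complexes and the shared core. Filled points passed the test: Pagr1a at 0.57, Paxip1 at 0.20 and Kmt2d at 0.19.

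Kmt2d, the targeted gene, was not lower in the libraries labelled cKO. It had 24305 and 27384 reads, or 836 and 793 CPM, in cKO, and 25037 and 21464 reads, or 721 and 704 CPM, in WT. Both cKO libraries lay above both WT libraries. The fitted log2 fold change came to 0.19 (SE 0.05, adjusted p = 0.0375 by edgeR's quasi-likelihood test), a fold of 1.14 with a 95% interval of 1.05 to 1.248. The gene (number 381022) runs over chr15:98831669-98874077 in RefSeq, and its annotated exons add up to 19.9 kb. A count over the whole gene also takes reads from exons outside a deleted part, so this value checks neither the deletion nor the labels. Every direction given here is therefore one between libraries so labelled. The call ended without cKO 1 (adjusted p = 0.237), cKO 2 (0.0951), WT 1 (0.109) or WT 2 (0.148), and with RLE scaling (0.0556). Log2 fold changes in these fits ran from 0.15 to 0.23.

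The genes beside Kmt2d did not move in 1 direction. As a background, 31.6% of all genes tested passed. For each other member the nearest tested gene on each side was looked up, and of these only those that passed are named. No other annotated gene overlapped Kmt2d in GENCODE M21. Prkag1, a subunit of the energy sensor AMPK, starts 147 bases beyond the end of Kmt2d on the same strand and had 79.8 and 86.5 CPM in cKO against 91.9 and 88.0 CPM in WT (log2 fold change -0.11, SE 0.06, edgeR adjusted p = 0.222). Arf3, a small GTPase gene 68454 bases away, was lower with a log2 fold change of -0.28 (SE 0.05, adjusted p = 0.0104). Lmbr1l, 32712 bases away, was also lower, at -0.29 (SE 0.06, adjusted p = 0.0144). The tubulin gene Tuba1b, 60220 bases away, was higher by 0.46 (SE 0.07, adjusted p = 0.00713). Rhebl1 (-0.01, SE 0.20) and Wnt10b (-0.29, SE 0.53) had low levels, at most 4.10 CPM, and did not pass. The call of Arf3 ended without cKO 2 (0.0653) or WT 1 (0.0528), and that of Lmbr1l without cKO 1 (0.0883) or WT 1 (0.0759). Beside the other members, the called neighbours were Prrt2 and Mvp next to Pagr1a, Brd3 next to Wdr5 (0.36, SE 0.06, edgeR adjusted p = 0.0117), Dstyk next to Rbbp5 (-0.35, SE 0.08, adjusted p = 0.0187) and Ggt7 next to Ncoa6 (-0.87, SE 0.15, adjusted p = 0.0101). The call of Brd3 ended without cKO 1 (0.0668) or WT 1 (0.0683), that of Ggt7 without WT 1 (0.0554), and that of Dstyk without cKO 1 (0.102), WT 1 (0.0808) or WT 2 (0.0711) and with DESeq2 (0.0771). Over the 4 libraries, the profile closest to that of Kmt2d (Euclidean distance of centred log2 CPM, among 8603 genes of at least 10 CPM) belonged to Pms2, Golim4 and Ecpas, at distances of 0.010, 0.011 and 0.011. With 4 libraries such likeness is common: 132 genes lay within 0.05.

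Kmt2c, the paralog that can act at the same enhancers, was measured at 341 and 276 CPM in cKO against 345 and 354 CPM in WT. The groups do not overlap, but cKO 1 was close to the WT libraries and cKO 2 stood apart from the other 3. The log2 fold change of -0.18 (SE 0.10, edgeR adjusted p = 0.244) did not pass, with a 95% interval from a fold of 0.742 to 1.05. This value rests on 1 library: without cKO 1 it was -0.35 and passed (adjusted p = 0.0298), and without cKO 2 it was -0.04 (adjusted p = 0.783). Between the cKO libraries Kmt2c differed by -0.31 on the log2 scale (cKO 2 over cKO 1), while the median of the 500 genes nearest to it in exon length differed by -0.03 and that of the 500 nearest in GC content by -0.01.

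The balance between the methyltransferase genes does not depend on library scaling. Per length, Kmt2d exceeded Kmt2c 2.49-fold and 2.93-fold in cKO and 2.13-fold and 2.02-fold in WT, a higher ratio in both cKO libraries (difference of mean log2 ratios 0.38, exact permutation test over libraries, 2-sided p = 0.333, the smallest that 2 against 2 can give). COMPASS complexes hold 1 of 6 methyltransferases, encoded by Kmt2d, Kmt2c, Kmt2a, Kmt2b, Setd1a and Setd1b. Of their summed TPM, Kmt2d made up 27.5% and 28.7% in cKO against 23.6% and 23.2% in WT. Kmt2a, the largest share in the WT libraries, had 26.0% and 23.4% in cKO and 24.6% and 26.0% in WT. Kmt2c took 11.1% and 9.79% in cKO and 11.1% and 11.5% in WT. The sum of the 6 was 545 and 484 TPM in cKO and 536 and 536 TPM in WT, so cKO 1 lay above both WT libraries and cKO 2 below them. By coding length the Kmt2d share was 24.6% in cKO and 20.3% in WT on average. That of Kmt2a was then 25.5% in cKO and 26.0% in WT, above Kmt2d in both groups, so their order in cKO depends on the length used.

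**Figure D3:**
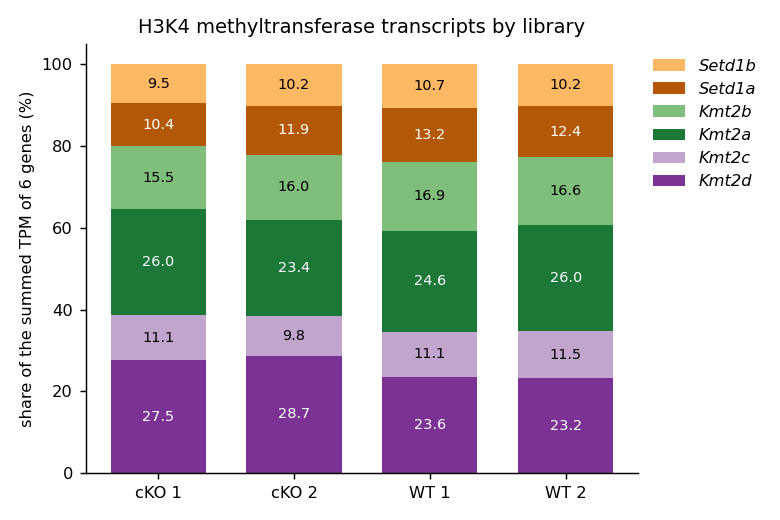
Share of each of 6 H3K4 methyltransferase genes in their summed TPM (vertical axis, percent) in the 2 cKO and 2 WT libraries. The lowest segment, Kmt2d, is 27.5% and 28.7% in cKO against 23.6% and 23.2% in WT.

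Among the subunits particular to the KMT2C and KMT2D complexes, Paxip1 and Pagr1a transcripts were higher in cKO. Those of Ncoa6 and Kdm6a did not pass. The products of Paxip1 and Pagr1a bind each other, but only RNA was measured here. Of 12 alternative fits, Pagr1a passed in 12 and Paxip1 in 6. Paxip1 (gene number 55982, chr5:27740080-27791672) encodes a protein with BRCT domains that also acts in DNA repair. It had 65.7 and 62.5 CPM in cKO against 55.7 and 56.0 CPM in WT. Both cKO libraries were above both WT libraries, and edgeR gave a log2 fold change of 0.20 (SE 0.05, adjusted p = 0.0346), a fold of 1.15 (95% interval 1.05 to 1.254). The call ended without cKO 1 (adjusted p = 0.219), cKO 2 (0.103), WT 1 (0.136) or WT 2 (0.112) and with DESeq2 (0.221).

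Pagr1a showed the largest difference of the 10 members. It encodes PAGR1, a small glutamate-rich protein that attaches to PAXIP1, and is gene number 67278 at chr7:127015051-127017352 in RefSeq. There were 2072 and 2402 reads in cKO and 1547 and 1530 reads in WT, or 71.2 and 69.6 CPM in cKO against 44.6 and 50.2 CPM in WT. The lowest cKO library stood well above the highest WT library. The log2 fold change was 0.57 (SE 0.07, edgeR quasi-likelihood adjusted p = 0.00521), a fold of 1.49 with a 95% interval of 1.32 to 1.67, and it passed in all 12 alternative fits (0.49 to 0.66). Of the 500 tested genes nearest to Pagr1a in GC content, 92.8% had a lower log2 fold change, and their median was -0.05. For the 500 nearest in exon length these were 84.4% and 0.05. Per length, Pagr1a over its partner Paxip1 stood at 7.79 and 8.00 in cKO and at 5.75 and 6.44 in WT (exact permutation test over libraries, 2-sided p = 0.333, the smallest possible).

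The gene just upstream of Pagr1a moved the same way and further. Prrt2, known from neurons for a presynaptic membrane protein, ends 178 bases before the start of Pagr1a on the same strand (GENCODE M21). It had 1167 and 1418 reads in cKO and 455 and 415 in WT, or 40.1 and 41.1 CPM in cKO against 13.1 and 13.6 CPM in WT. Its log2 fold change was 1.60 (SE 0.07, edgeR adjusted p = 0.00159). Mvp, which encodes the major vault protein, lies downstream and went the other way, with 41.3 and 44.6 CPM in cKO against 55.0 and 62.2 CPM in WT (log2 fold change -0.45, SE 0.08, edgeR adjusted p = 0.0107). Per length, the mean difference between cKO and WT was 57.8 TPM for Pagr1a and 30.6 TPM for Prrt2. GENCODE M21 annotates 2 further genes that overlap Pagr1a on its strand, Gm42742, which begins inside Prrt2 and runs into the last annotated bases of Pagr1a, and Pagr1b, which begins inside Pagr1a and runs into Mvp. Reads from such joined transcripts could have been counted for Pagr1a, so its value is uncertain to that extent, and their part was not tested. These neighbours were chosen with the values of Pagr1a known.

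**Figure D4:**
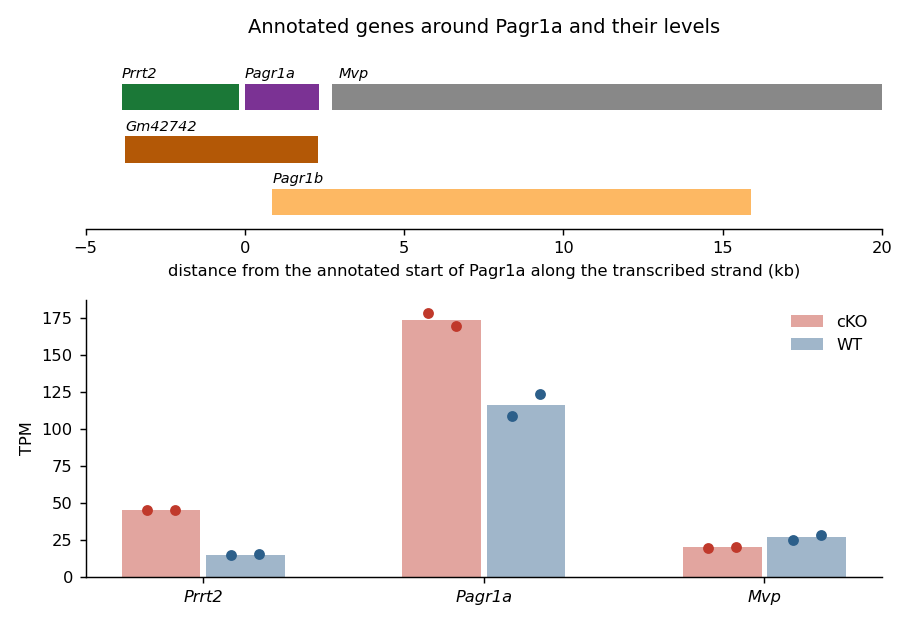
Top, annotated genes around Pagr1a by distance from its start along the transcribed strand (horizontal axis, kb, with Mvp running past the right edge). Bottom, TPM of Prrt2, Pagr1a and Mvp in cKO (red) and WT (blue), with bars for means and points for libraries. Prrt2 lies at 45.5 and 45.3 TPM in cKO against 14.5 and 15.2 TPM in WT.

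Ncoa6, a coactivator of nuclear receptors, had 130 and 132 CPM in cKO against 141 and 132 CPM in WT. Its 95% interval ran from a fold of 0.877 to 1.05 (log2 fold change -0.06, edgeR adjusted p = 0.495). Kdm6a, also called UTX, had 87.7 and 94.1 CPM in cKO against 109 and 92.0 CPM in WT, and the groups overlapped. The log2 fold change of -0.14 (SE 0.09, edgeR adjusted p = 0.295; 95% interval of the fold 0.776 to 1.06) leant on WT 1, the highest library: without it the value was -0.02 and without WT 2 -0.26. Its Y-linked paralog Uty was expressed at 12.3 TPM in cKO and 11.5 TPM in WT. Per length, Kdm6a exceeded Uty 2.97-fold and 3.25-fold in cKO and 3.75-fold and 3.54-fold in WT. Reads of these paralogs could have been split by the counting.

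The 4 core subunits that all COMPASS complexes share did not pass. Wdr5, which docks onto the histone tail and the methyltransferase, had 60.1 and 62.3 CPM in cKO against 59.4 and 58.6 CPM in WT. Rbbp5 had 71.0 and 63.7 CPM in cKO against 66.4 and 72.1 CPM in WT, and Ash2l, with which RBBP5 activates the methyltransferase, had 54.4 and 51.9 CPM in cKO against 51.4 and 56.0 CPM in WT. For both genes the groups overlapped. Dpy30, a small dimeric adaptor that binds ASH2L, had 24.6 and 27.2 CPM in cKO against 24.4 and 23.8 CPM in WT. The 95% intervals of the fold were 0.952 to 1.13 for Wdr5, 0.855 to 1.11 for Rbbp5, 0.890 to 1.10 for Ash2l and 0.945 to 1.22 for Dpy30. The edgeR adjusted p-values were 0.504, 0.762, 0.918 and 0.364 in the same order. The log2 fold changes of Rbbp5 (-0.04) and Ash2l (-0.01) were positive without cKO 2 or without WT 2, and that of Ash2l also with upper-quartile scaling. Summed over the 4, the level was 223 and 220 TPM in cKO and 211 and 217 TPM in WT. The 4 subunits particular to the KMT2C and KMT2D complexes summed to 287 and 277 TPM in cKO and to 223 and 229 TPM in WT, and Pagr1a alone differed by 57.8 TPM between the group means.

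Across the members, the groups did not overlap for 7 of 10 genes, against 66.0% of all genes tested. The cKO libraries were both above WT for 5 members, Kmt2d, Paxip1, Pagr1a, Wdr5 and Dpy30 (35.1% of all genes tested), and both below it for 2, Kmt2c and Ncoa6 (30.9% of all genes tested). The 7 of 10 lie near the background. With 10 members the counts in each direction are small, and neither was tested against the background. Between the libraries of a group the coefficient of variation was highest for Kmt2c in cKO, at 15.01%, and for Kdm6a in WT, at 11.8%, and lowest for Paxip1 in WT, at 0.444%. The ratio of the highest to the lowest library was 1.60 for Pagr1a, 1.29 for Kmt2c and 1.06 for Wdr5.

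**Figure D5:**
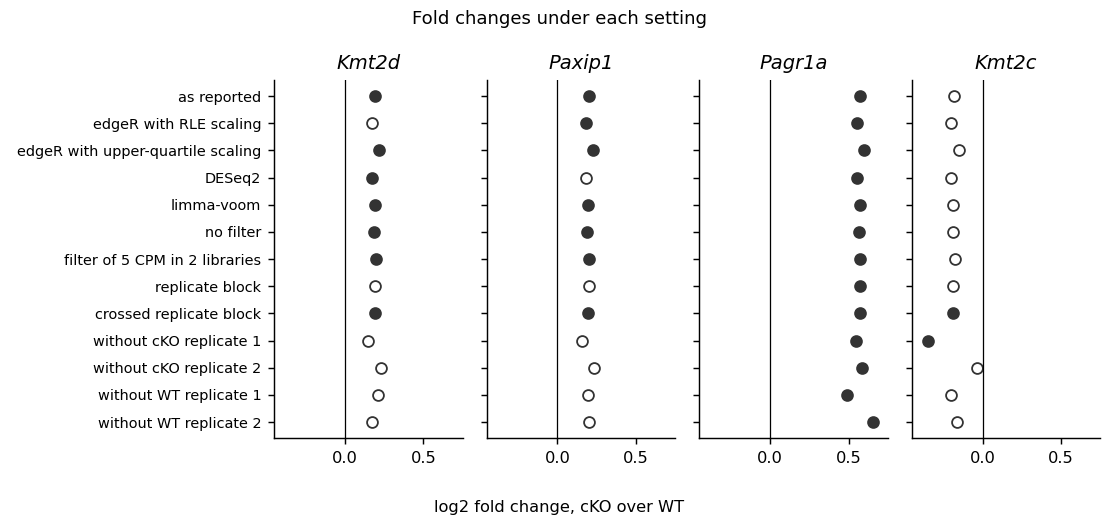
Log2 fold change, cKO over WT (horizontal axis), of Kmt2d, Paxip1, Pagr1a and Kmt2c under each setting (rows). Filled points passed at an adjusted p under 0.05. Pagr1a passed in all 12 alternatives (0.49 to 0.66), and Kmt2c moved between -0.35 and -0.04 as single libraries were left out.

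In the other COMPASS and H3K4 genes, 2 of 21 rose, 2 fell and 17 did not pass (list median -0.05, against 0.0003 over all genes tested, of which 31.6% passed). Kdm6b, whose product shares the lysine 27 demethylase activity of KDM6A, measured 168 and 201 CPM in cKO against 399 and 330 CPM in WT. This was the largest difference in the list, a log2 fold change of -0.98 (SE 0.12, edgeR adjusted p = 0.00521), and it passed in all 12 alternative fits. Per length, Kdm6a stood at 0.433 and 0.388 of Kdm6b in cKO and at 0.226 and 0.231 of it in WT. Setd1a, whose product is a main trimethylating enzyme at promoters, fell by 0.27 (SE 0.06, adjusted p = 0.0168). Men1, the menin subunit of KMT2A and KMT2B complexes, rose by 0.26 (SE 0.05, adjusted p = 0.0184), and the lysine 4 demethylase gene Kdm1a by 0.20 (SE 0.05, adjusted p = 0.0267). The call of Setd1a ended without cKO 1 (0.0993) or WT 1 (0.0844). That of Men1 ended without cKO 1 (0.104), cKO 2 (0.0760) or WT 1 (0.102), and with DESeq2 (0.0886). That of Kdm1a ended without cKO 1 (0.163), cKO 2 (0.110), WT 1 (0.118) or WT 2 (0.0860), and with DESeq2 (0.123).

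In the list of coactivators that work at enhancers beside KMT2C and KMT2D, 5 of 29 fell, 0 rose and 24 did not pass (list median -0.06). Of all genes tested, 31.6% passed, 15.1% lower and 16.5% higher, with a median of 0.0003. The 5 that fell are 17.2% of the list, near the share of all genes called lower. At an unadjusted p under 0.05, 3 of the 29 were higher and 9 lower. DESeq2 and limma-voom also called 0 higher and 5 lower. With upper-quartile scaling 2 rose and 3 fell. Ncoa3, a nuclear receptor coactivator, had 317 and 318 CPM in cKO against 456 and 433 CPM in WT (log2 fold change -0.48, SE 0.05, edgeR adjusted p = 0.00435) and passed in all 12 alternative fits. Its relative Ncoa2 fell by 0.27, and the histone acetyltransferase genes Crebbp and Ep300 by 0.24 and 0.19, with edgeR adjusted p-values of 0.0155, 0.0231 and 0.0411. The mediator subunit gene Med23 fell by 0.18 (adjusted p = 0.0418), a call that ended with upper-quartile scaling (0.0776), DESeq2 (0.215) and no filter (0.0572). That of Ep300 ended with upper-quartile scaling too (0.0667). The call of Ncoa2 ended without cKO 1 (0.0563), cKO 2 (0.0891) or WT 1 (0.0791), and that of Crebbp without cKO 1 (0.0982), cKO 2 (0.104) or WT 1 (0.107). That of Ep300 ended without cKO 1 (0.0969), cKO 2 (0.237), WT 1 (0.168) or WT 2 (0.0885), and that of Med23 without cKO 1 (0.187), cKO 2 (0.203), WT 1 (0.164) or WT 2 (0.129).

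PAXIP1 also takes part in repair of DNA breaks with 53BP1. Of 10 genes tested from that list, 1 fell, 0 rose and 9 did not pass (median -0.03, against 0.0003 over all genes tested, of which 31.6% passed and 15.1% were lower), with 0 higher at an unadjusted p under 0.05 and 0 higher by DESeq2 or limma-voom. H2ax was not analysed here. Trp53bp1, which encodes 53BP1, had 79.1 and 77.6 CPM in cKO against 77.0 and 81.4 CPM in WT. The 1 that fell was Mdc1, an adaptor at DNA breaks, with 92.4 and 85.4 CPM in cKO against 101 and 110 CPM in WT (log2 fold change -0.24, SE 0.07, edgeR adjusted p = 0.0407). Its call ended without cKO 1 (0.0607), cKO 2 (0.185), WT 1 (0.0596) or WT 2 (0.162) and with upper-quartile scaling (0.0672).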

How the data were processed

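Counts of reads per gene, as whole numbers, were deposited by the authors for 4 libraries. Per the submitters' processing notes the build was mm10. Which aligner, counter, annotation and strand setting produced them is not given in the sources used here. Reads of overlapping genes cannot be told apart. Genes were kept by filterByExpr (minimum count 10, minimum total 15) and compared by edgeR 4.0.16 in R 4.3.3 (TMM scaling, glmQLFit and glmQLFTest, design of group alone, 2-sided, Benjamini-Hochberg over 13861 genes, threshold 0.05). SE is the absolute log2 fold change over the square root of F, and 95% intervals use the moderated degrees of freedom. The test was checked on simulated counts with changes planted in 200 genes. Each planted change was larger than that of any member, so changes as small as theirs were not checked. TPM used exon lengths from GENCODE M21 (GRCm38), at hand for 17933 genes. The members and lists were chosen with earlier results of these data known. Named genes were the 10 members, genes of 3 lists that passed, neighbours of the members and the 3 profiles closest to Kmt2d. Replicates of a group differed beyond sampling noise (chi-square per degree of freedom 9.47 in cKO and 10.2 in WT, 1 where counting noise alone acts). A count of 0 allows up to 0.0864 to 0.103 CPM (3 counts), for counting error only. As alternatives, scaling was by RLE or upper quartile, the test was DESeq2 1.42.0 or voom in limma 3.58.1, and the filter was absent or set at 5 CPM in 2 libraries. Others were each library left out, a replicate block, a threshold of 0.10 and, added after the data were seen, coding length and a crossed block.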

Additional observations from a re-analysis of the deposited data

How the results depend on the processing

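Over the 10 members and 12 alternative fits, 105 of 120 fits kept the call and 0 turned a called direction, 12 lost a call (all of Kmt2d or Paxip1) and 3 gained one. Of the 10 members, 3 passed as reported. With 1 library left out, 1 to 2 passed, and over all genes 1869 to 2747 passed in place of 4380 (a group of 1 library is then assumed to vary like the other). DESeq2 called 2876 genes. With the replicate number as a block, 2292 genes and 1 member (Pagr1a) passed. The numbers carry no stated pairing, and deviations of the libraries numbered 1 correlated at -0.32 over 13861 genes. A crossed block, added after the data were seen, called 6713 genes and 5 members. The cause was not tested. Levels per length depend on the annotation: Kmt2d in cKO had 52.9 TPM by coding length and 144 TPM by exon length. A planned comparison with lengths of RefSeq proteins was not run, and GENCODE coding length, added after the data were seen, took its place.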
